A study of Mus musculus with 8 samples.

Results

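The libraries described here come from the Hdac2 lox/lox line, mouse embryonic stem cells of strain C57BL/6 that were differentiated to haemogenic endothelium and sequenced as total RNA. The line makes up 4 of the 8 libraries of the study. Its members were chosen by their labels: 2 libraries labelled EtOH (ethanol, the vehicle) and 2 labelled 4OHT (4-hydroxytamoxifen, a ligand commonly used to switch on Cre recombinase fused to a modified oestrogen receptor). All 4 carry the lox/lox alleles. The sources used here do not give the Cre transgene, where the lox sites lie or how long the cells were exposed, and no library is labelled as a 4OHT-treated control without lox sites. The other 4 libraries are the same design in an Hdac1 lox/lox line. The labels do not say that replicates came from separate cultures, so p-values measure the spread between these libraries, which may be technical. Each Hdac2-line library held between 10215792 and 15387579 counted reads.

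Haemogenic endothelium is an endothelial cell type of the embryo that turns into blood cells. Hdac2 encodes a class I histone deacetylase, which works with its close relative Hdac1 in complexes that remove acetyl groups from histones and are commonly linked to gene repression. Cells in this transition change their adhesion, their matrix and their metabolism, so the account below follows those groups of genes after the overall pattern.

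The Hdac2 transcript itself (ENSMUSG00000019777, mm10 chr10:36974544-37001889, plus strand) was counted at 165 and 151 CPM (read counts scaled to a common library size) in the EtOH libraries and at 149 and 149 CPM in the 4OHT libraries. Its log2 fold change, 4OHT over EtOH, was -0.08 ± 0.14 (SE, adjusted p = 0.67). A count over the whole gene need not fall when a few exons are removed, so this value does not check the labels. Hdac1 was at 7.45 and 7.16 CPM in EtOH and 5.12 and 4.00 CPM in 4OHT (log2 fold change -0.68 ± 0.24, adjusted p = 0.056). Neither gene passed the test.

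One library stood apart before any comparison. Uty, a gene of the Y chromosome, was at 5.63 CPM in EtOH replicate 2 and between 0.233 and 0.519 CPM in the other 3 Hdac2-line libraries, while the Hdac1-line libraries had 19.4 to 24.6 CPM. Eif2s3y, also Y-linked and, like Uty, named after its values were seen, was at 5.63 CPM in EtOH replicate 2 and between 0.0889 and 0.324 CPM in the other 3, against 24.4 to 27.9 CPM in the Hdac1 line. The part of this difference in the results was not tested, and beside each list below stands how many of its genes called as counted held without that library, meaning that they moved the same way with an unadjusted p below 0.05.

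Of 41128 genes in the table, 14179 had enough counts to be tested, and 5113 of them (36.1%) differed between 4OHT and EtOH at an adjusted p under 0.05 in edgeR's quasi-likelihood test. Of these, 2680 were higher in 4OHT (18.9% of the genes tested) and 2433 were lower (17.2%). The genes called higher changed more: their median log2 fold change was 1.36, against -0.97 for the genes called lower. A change of at least 2-fold was seen in 1891 genes called higher and 1131 called lower, and one of at least 4-fold in 667 and 180. The genes called higher took 14.8% and 14.6% of the normalised counts in the EtOH libraries and 33.3% and 35.2% in the 4OHT libraries. The genes called lower took 29.1% and 28.7% in EtOH and 14.1% and 12.9% in 4OHT. Both 4OHT libraries lay outside the range of the EtOH libraries for all 5113 called genes, but that also held for 78.3% of all genes tested. The median log2 fold change over all genes tested was -0.02. It was -0.14 when libraries were scaled by their totals alone and -0.15 with upper quartile scaling.

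**Figure D1:**
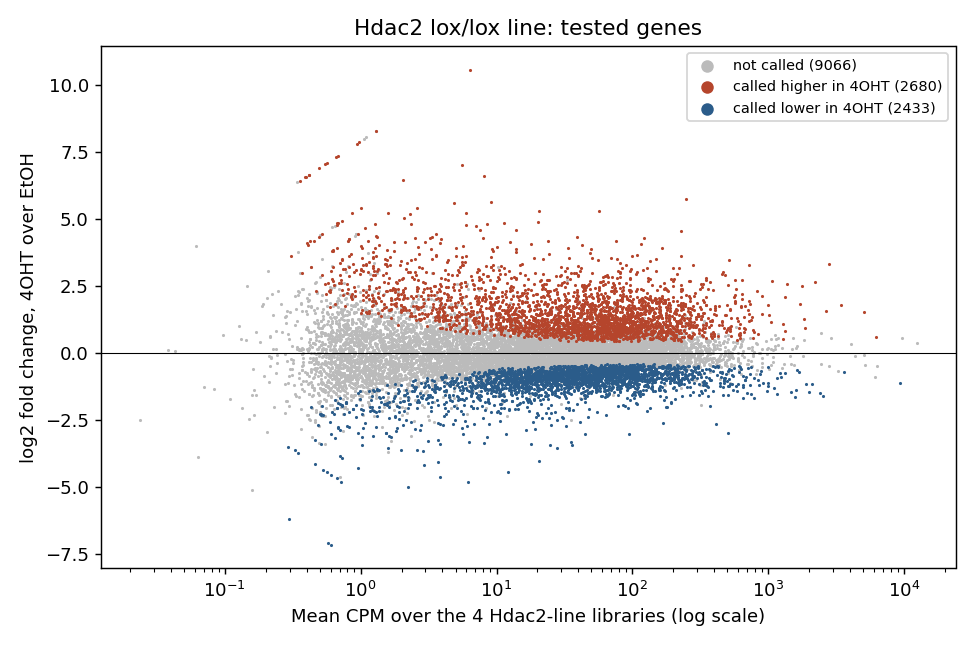
Each point is a tested gene of the Hdac2 lox/lox line, with its mean CPM over the 4 libraries on a log axis and its log2 fold change, 4OHT over EtOH, on the vertical axis. The 2680 genes called higher reach further from 0 than the 2433 called lower.

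The count of calls depended on which libraries set the spread. In the fit over all 8 libraries, leaving out EtOH replicate 2 left 0 genes called, with 5112 at an unadjusted p under 0.05. Leaving out EtOH replicate 1 left 116, leaving out 4OHT replicate 1 left 826, and leaving out 4OHT replicate 2 left 91. All 5113 called genes kept their direction without EtOH replicate 2, and 4449 of them held. Fitted on the Hdac2 line alone, 7272 genes were called, and without EtOH replicate 2 that fit called 6500 genes, 4750 of them among the 5113.

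A second measured pattern ran through the whole table. When genes were sorted into 5 bins of equal number by the length of their longest annotated transcript, the median log2 fold change climbed from -0.57 in the shortest bin (57 to 1653 bases) through -0.29, -0.08 and 0.23 to 0.78 in the longest (5152 bases and above). In the shortest bin 4.74% of genes were called higher and 29.0% lower, and in the longest 44.8% were called higher and 3.75% lower. The longest bin took 16.8% and 18.4% of the normalised counts in EtOH and 29.1% and 31.3% in 4OHT. The rise with length held in each of 5 bins of expression. It did not follow GC content: the medians of bins by transcript GC lay between -0.10 and 0.04.

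Libraries that share a label also differed along transcript length. The median log2 ratio of the longest bin minus that of the shortest was 1.08 to 1.43 for the 4 pairings of a 4OHT with an EtOH library in the Hdac2 line, -0.21 between its EtOH replicates 1 and 2, and -0.20 between its 4OHT replicates 1 and 2. In the Hdac1 line it was -0.86 between EtOH replicates 1 and 2 and 0.55 between 4OHT replicates 1 and 2. Across 13073 genes with a mean of at least 1 CPM, the difference between those Hdac1-line EtOH replicates (2 minus 1) had a Pearson correlation of 0.70 with the log2 fold change of the Hdac2 line. This correlation is over genes, which are not independent, and the libraries share one normalisation. A difference of this kind therefore also occurred between libraries with the same label, and its part in the Hdac2-line result was not tested.

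**Figure D2:**
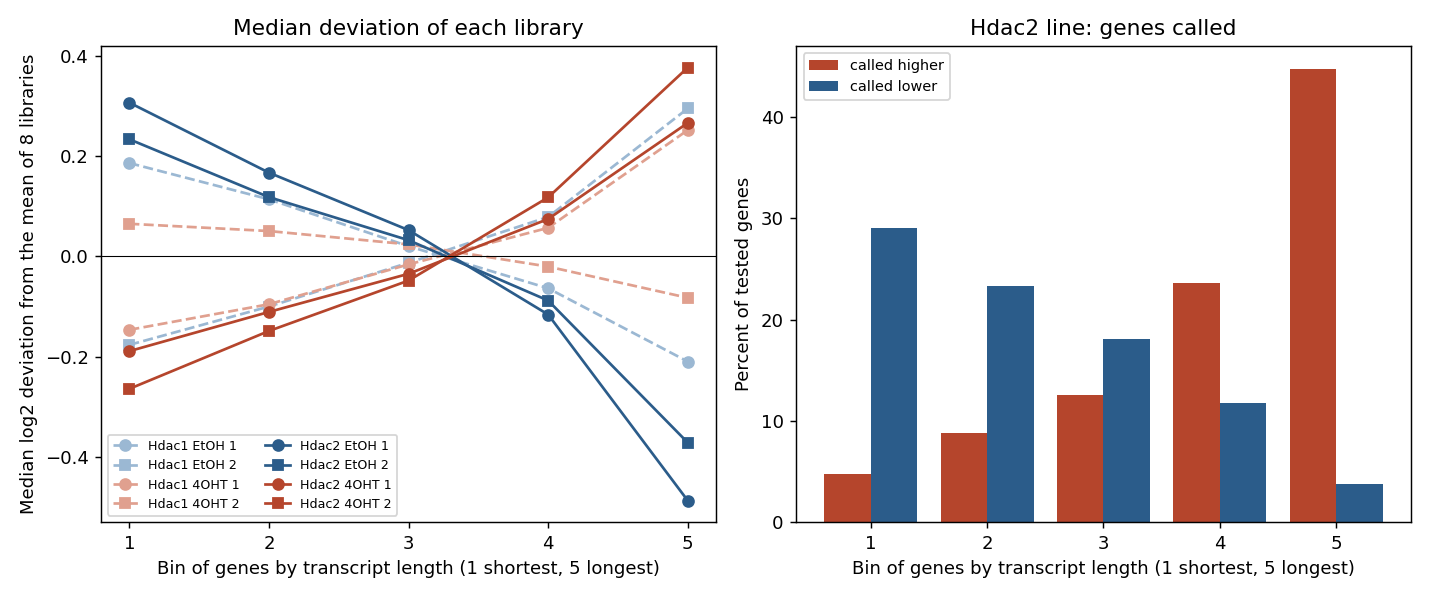
Left, the median log2 deviation of each library from the mean of the 8 libraries, by bin of transcript length; circles are replicate 1 and squares replicate 2. Right, the percent of tested genes called in the Hdac2 line per bin. Both Hdac2-line 4OHT libraries lean to long transcripts and both EtOH libraries to short ones, and the 2 Hdac1-line EtOH libraries lean opposite ways.

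For that reason each group of genes is given as counted and, where the number called moves by over 1.5 times or a call ends, with each library's trend on transcript length and GC content removed (called the length-adjusted fit below). Of the 14179 genes tested, that fit called 4697, with 2490 higher and 2207 lower. Of these, 3464 were among the 5113 and in the same direction. The length-adjusted fit brought the medians of the shortest and longest bins to -0.01 and 0.05.

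Synthesis of serine and the one-carbon units made from it had the lowest median of the metabolic lists under both fits. These enzymes supply glycine, methyl groups and building blocks of nucleotides. Of 17 tested members 12 fell and 1 rose, with a median log2 fold change of -1.12. Psat1, the aminotransferase of serine synthesis (ENSMUSG00000024640, chr19:15904678-15947337), was at 748 and 675 CPM in EtOH and 121 and 105 CPM in 4OHT, which is -2.66 ± 0.38 as a log2 fold change (SE, adjusted p = 0.0086). The 4OHT libraries were both far below the EtOH libraries. Phgdh, which catalyses the first step, went from 55.6 and 48.5 CPM to 11.5 and 7.91 CPM (-2.42 ± 0.44, adjusted p = 0.011). Shmt2, the mitochondrial enzyme that splits serine into glycine and a one-carbon unit, went from 291 and 282 CPM to 70.8 and 71.7 CPM (-2.01 ± 0.27, adjusted p = 0.0081). Mthfd1l, a later mitochondrial folate enzyme, fell from 147 and 153 CPM to 53.2 and 56.2 CPM. The length-adjusted fit again called 12 members lower and 0 higher, and 12 of 13 held. In the Hdac1 line Psat1 was at 416 and 196 CPM in EtOH and 219 and 360 CPM in 4OHT. Shmt2 was there at 208 and 122 CPM in EtOH and 120 and 161 CPM in 4OHT. These genes thus also differed between libraries with the same label. The part of such differences in the Hdac2-line result was not tested.

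Genes that handle amino acids fell alongside. The cytosolic aminoacyl-tRNA synthetases, which load amino acids onto tRNAs, had 14 of 20 members lower and 0 higher (median -0.66), and 14 lower after length adjustment (12 of 14 held). Vars, the valine enzyme, went from 283 and 299 CPM to 148 and 144 CPM (-1.0 ± 0.20, adjusted p = 0.014), and Qars, the glutamine enzyme, from 148 and 136 CPM to 81.3 and 72.3 CPM. Cars, the cysteine enzyme, did not pass, at 61.1 and 55.7 CPM against 42.8 and 53.0 CPM. Of 18 amino acid transporters 7 fell and 2 rose, and 9 fell and 0 rose after adjustment (9 of 9 held). Slc7a5, the light chain of a large neutral amino acid exchanger, went from 269 and 261 CPM to 80.3 and 76.2 CPM (-1.76 ± 0.25, adjusted p = 0.0086), and its partner Slc3a2 from 278 and 248 CPM to 140 and 120 CPM.

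ATF4 is a transcription factor of the amino acid stress response, and many of the genes above are known targets of it. Among 20 listed stress targets 8 fell and 0 rose, and 7 fell and 1 rose after adjustment (8 of 8 held). Asns, which makes asparagine, was at 217 and 202 CPM in EtOH and 48.0 and 45.3 CPM in 4OHT (-2.17 ± 0.35, adjusted p = 0.0089). In the Hdac1 line Asns was at 119 and 64.7 CPM in EtOH and 65.3 and 116 CPM in 4OHT. Cth, which makes cysteine, went from 17.5 and 12.8 CPM to 2.87 and 1.96 CPM, and Trib3, a pseudokinase of the stress response, from 57.6 and 32.5 CPM to 4.50 and 3.73 CPM. Atf4 itself did not pass the test, at 448 and 334 CPM in EtOH and 181 and 206 CPM in 4OHT (-1.01 ± 0.37, adjusted p = 0.062). Its EtOH and 4OHT values did not overlap, which also held for 78.3% of all genes tested.

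The promoters of the serine, synthetase, transporter and stress target lists were searched on either strand for TTGCATCA. It is a core of the composite site that ATF4 binds. It was found in 4 of 12 tRNA synthetase promoters with a sequence (33.3%), in 4 of 18 promoters of the stress targets (22.2%), and in 0.565% of the 9728 promoters of all tested genes. It was in 1 of 13 amino acid transporter promoters and in 0 of 14 promoters of the serine and one-carbon list. Each promoter spans 250 bases before to 50 after a RefSeq start site. Of the synthetases with a match Aars, Iars and Yars fell and Tars did not pass. None of the 4 stress targets with a match passed the test, at log2 fold changes of -2.37 for Chac1, -1.65 for Nupr1, 0.82 for Atf3 and 0.73 for Slc7a11. The windows below show a match upstream of the start site in a synthetase that fell and in 2 stress targets. Of the 4 stress targets with a match, these had the lowest and the highest fold change. The match is in capitals, 5′ to 3′ on the gene's strand, from RefSeq on GRCm38.p6. They were chosen after their values were seen.
Aars, chr8:111033700-111033767, plus strand: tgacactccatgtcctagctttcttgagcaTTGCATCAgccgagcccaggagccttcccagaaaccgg
Chac1, chr2:119351019-119351086, plus strand: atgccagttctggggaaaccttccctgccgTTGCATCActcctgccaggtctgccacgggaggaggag
Atf3, chr1:191183406-191183473, minus strand: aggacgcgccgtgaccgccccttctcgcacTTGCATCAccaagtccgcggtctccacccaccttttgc
Aars, the alanine enzyme, fell from 398 and 400 CPM to 262 and 252 CPM. Chac1, which degrades glutathione, was at 24.4 and 15.9 CPM and then at 3.03 and 4.80 CPM without passing the test. A match of these letters is a description and not a shown binding site. The stress list was written as ATF4 targets, so its share of matches does not test ATF4 activity here.

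Nucleotide synthesis followed the same direction, with 13 of 22 purine and pyrimidine genes lower and 1 higher (median -0.67), and 14 lower after length adjustment (12 of 14 held). Umps, which completes uridine monophosphate, went from 174 and 217 CPM to 92.3 and 73.1 CPM (-1.24 ± 0.25, adjusted p = 0.014). Dctd, which makes deoxyuridine monophosphate from its cytidine form, went from 60.2 and 79.6 CPM to 22.3 and 16.4 CPM. Cad, the enzyme that opens pyrimidine synthesis, was at 298 and 292 CPM against 233.9 and 190 CPM. It did not pass as counted (adjusted p = 0.090) and was called lower in the length-adjusted fit (-1.38, adjusted p = 0.0027). DNA repair and Fanconi genes had 18 of 42 members lower and 0 higher (14 of 18 held), among them Ung, which removes uracil from DNA (33.1 and 36.1 CPM to 17.4 and 16.7 CPM).

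Haem synthesis and iron handling had 9 of 21 members lower and 2 higher, with 13 lower and 3 higher after length adjustment (11 of 11 held). Alas2, the erythroid first enzyme of haem synthesis, went from 45.2 and 27.7 CPM to 10 and 3.29 CPM (-2.45 ± 0.47, adjusted p = 0.012). Alad, the next enzyme, went from 55.7 and 58.7 CPM to 23.7 and 19.9 CPM, and Cpox, a later one, from 121 and 145 CPM to 65.8 and 59.6 CPM. Markers of erythroid cells moved with this group: 5 of 9 fell (5 of 5 held). Alas2 is a member of both lists, so the lists are not separate. The summed level of the erythroid markers was 1708 and 1590 CPM in EtOH and 376 and 231 CPM in 4OHT. Hbb-bh1, an embryonic globin, was at 937 and 849 CPM against 138 and 88.5 CPM. In bulk RNA, fewer erythroid cells and less of these RNAs per cell cannot be told apart.

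Genes of the ribosome and of mitochondria fell broadly, and these are also short transcripts. Of 78 cytosolic ribosomal protein genes 54 fell and 0 rose (median -1.13, median transcript length 1077 bases), and 34 fell after length adjustment (median -0.59; 53 of 54 held). Rplp1, of the ribosomal stalk, went from 3970 and 3094 CPM to 1353 and 1135 CPM (-1.51 ± 0.31, adjusted p = 0.014). Many ribosomal protein genes have near-identical pseudogenes, and reads could be split between copies. Of 73 mitochondrial ribosomal protein genes 52 fell and 0 rose (median -0.83), and 32 fell and 2 rose after adjustment (44 of 52 held). Of 73 nuclear-encoded respiratory chain subunits 37 fell and 0 rose (median -0.72), and 17 fell and 1 rose after adjustment (median -0.23; 36 of 37 held). Cyc1, a subunit of complex III, went from 205 and 186 CPM to 80.5 and 74.9 CPM and was also called after adjustment (-1.04, adjusted p = 0.0071). Atp5b, of the ATP synthase, went from 2165 and 2048 CPM to 1352 and 1212 CPM, a call that ended in the adjusted fit (adjusted p = 0.085). Proteasome subunits had 17 of 36 members lower and 0 higher, and 7 lower and 1 higher after adjustment (15 of 17 held). Their median went from -0.52 as counted to -0.21 adjusted. The adjusted share lower was near that over all genes, 2207 of 14179 in the length-adjusted fit.

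Ribosome biogenesis factors had 19 of 36 members lower and 0 higher, and 20 lower and 2 higher after adjustment (17 of 19 held). Polr1b, of RNA polymerase I, went from 74.3 and 85.7 CPM to 40.1 and 36.7 CPM. Translation factors had 13 of 30 members lower and 4 higher, and 9 and 2 after adjustment (16 of 17 held). Eef1a1, the main elongation factor, fell from 13202 and 12414 CPM to 6250 and 5580 CPM, whereas Eif4g1, the scaffold of the initiation complex, rose from 592 and 680 CPM to 975 and 1117 CPM. Eif5b, which joins the ribosomal subunits, rose from 118 and 102 CPM to 247 and 275 CPM. The calls for Eif4g1 and Eif5b ended after length adjustment (adjusted p = 0.45 and 0.22).

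In energy metabolism outside the respiratory chain, the citric acid cycle, glycolysis and fatty acid oxidation lists had more members called lower than higher. The hypoxia list had more called higher. The citric acid cycle list had 10 of 25 members lower and 1 higher, and 7 lower and 1 higher after length adjustment. Of those called as counted 9 held. Glycolysis had 6 of 22 members lower and 2 higher, beside 17.2% lower and 18.9% higher among all genes (8 of 8 held). Slc16a1, a lactate transporter, went from 190 and 214 CPM to 99.6 and 87.4 CPM (-1.11 ± 0.17, adjusted p = 0.0087), while Hk2, a hexokinase, was at 122 and 105 CPM against 144 and 94.9 CPM, with overlapping groups. Cpt1a, which admits fatty acids into mitochondria for oxidation, rose from 8.17 and 8.31 CPM to 39.6 and 42.1 CPM (2.31 ± 0.19, adjusted p = 0.0041). The list of peroxisomal and fatty acid oxidation genes had 8 of 27 members lower and 2 higher (10 of 10 held). In the hypoxia list 7 of 18 rose and 1 fell (7 of 8 held). Epas1, an oxygen-regulated transcription factor prominent in endothelium (chr17:86753907-86833410), rose from 32.2 and 48.1 CPM to 227 and 489 CPM (3.16 ± 0.53, adjusted p = 0.0099), while Hif1a was at 294 and 300 CPM against 412 and 403 CPM and did not pass (adjusted p = 0.061).

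**Figure D3:**
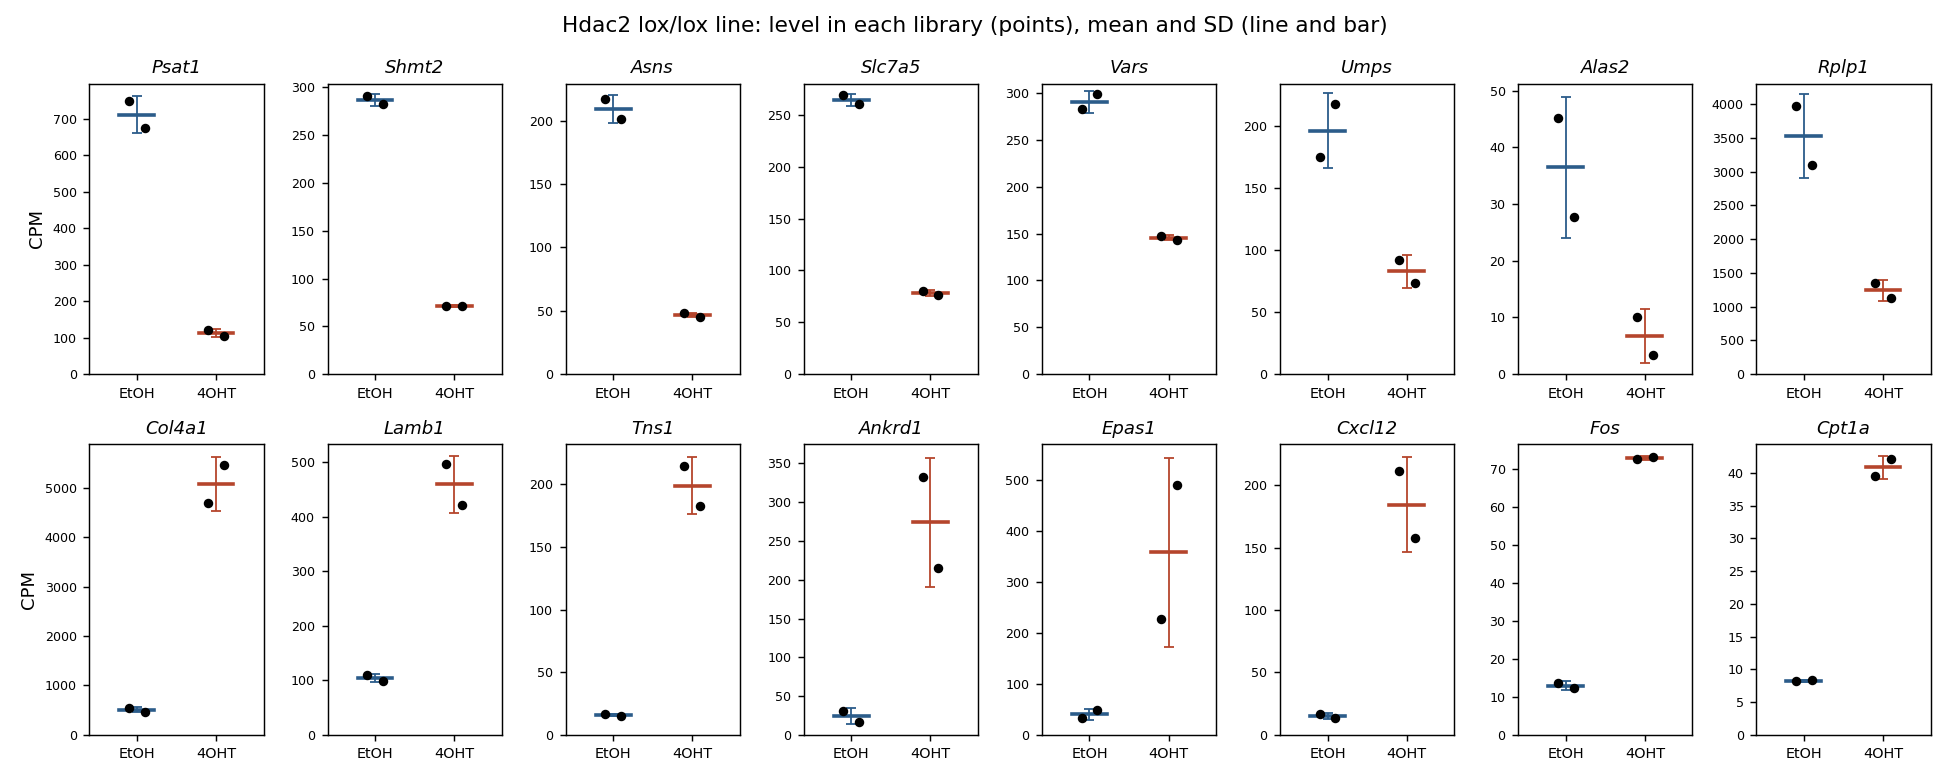
CPM of 16 genes in each Hdac2-line library (points), with the mean of the 2 libraries (line) and the SD (bar); each vertical axis starts at 0. The upper 8 genes were lower and the lower 8 higher in both 4OHT libraries than in both EtOH libraries.

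Of the 51 gene lists, the 4 with the highest medians under both fits were those of YAP and TEAD targets, basement membrane, focal adhesion and collagens. In the list of focal adhesion and actin cytoskeleton genes, which anchor cells to matrix, 28 of 35 rose and 1 fell (median 1.42). After length adjustment 28 rose and 2 fell. Of the called genes 25 of 29 held. Tns1, an adaptor between integrins and actin, rose from 16.6 and 15.2 CPM to 215 and 183 CPM (3.64 ± 0.29, adjusted p = 0.0041). Myh9, a non-muscle myosin, rose from 166 and 135 CPM to 946 and 1035 CPM, and Vcl (vinculin) from 364 and 341 CPM to 1091 and 1042 CPM. Integrins themselves had 8 of 20 members higher and 1 lower, and 6 and 2 after adjustment (9 of 9 held). Itgb1, the common beta chain, rose from 852 and 824 CPM to 1767 and 1736 CPM, and Itga2b, a marker of early blood progenitors and platelets, fell from 188 and 152 CPM to 48.3 and 42.4 CPM.

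Basement membrane is the matrix sheet under endothelium, built of type IV collagen and laminin. Laminins and their partners had 18 of 25 members higher and 0 lower (median 1.52), and 13 higher after adjustment (16 of 18 held). Collagens and the enzymes that process them had 16 of 29 higher and 0 lower, and 14 higher after adjustment (13 of 16 held). Col4a1 (chr8:11198423-11312826) was at 551 and 471 CPM in EtOH and 4685 and 5456 CPM in 4OHT (3.31 ± 0.53, adjusted p = 0.0089). Col4a1 also differed between Hdac1-line libraries with the same label, at 1101.9 and 3170.5 CPM in EtOH and 4128.8 and 2058 CPM in 4OHT. Its neighbour Col4a2, which overlaps it on the opposite strand, rose from 688 and 549 CPM to 3615 and 4053 CPM, and the sources used here do not say whether the counting used strand. Slc6a9, Alas2, Eif5b, Vcl, Hdac7, Tpr, Igfbp7 and Erbb2 also overlap another gene on the opposite strand, and their values are uncertain in the same way. Lamb1, a laminin beta chain, rose from 110 and 99.2 CPM to 496 and 422 CPM (2.13 ± 0.29, adjusted p = 0.0081). Hspg2 (perlecan) rose from 436 and 365 CPM to 2124 and 2607 CPM, and Loxl2, which cross-links collagen, from 14.6 and 17.5 CPM to 120 and 78.2 CPM. Col5a1, a fibrillar collagen, rose from 107 and 53.3 CPM to 316 and 167 CPM, a call that ended after adjustment (adjusted p = 0.38).

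YAP and TAZ are coactivators that respond to adhesion and tension and act through TEAD factors. Of 22 listed targets and partners 16 rose and 0 fell (median 1.88), with 14 higher after length adjustment (15 of 16 held). Ankrd1, a muscle and endothelial ankyrin protein, rose from 31.2 and 17.2 CPM to 333 and 215 CPM (3.49 ± 0.42, adjusted p = 0.0066). Ctgf and Cyr61, secreted matrix proteins, rose from 188 and 95.8 CPM to 597 and 458 CPM and from 190 and 79.9 CPM to 608 and 456 CPM. In these 3 genes EtOH replicate 2 was lower than EtOH replicate 1. The TEAD core CATTCC, on either strand, was in 10 of the 16 promoters with a sequence (62.5%) and in 12.01% of the 9728. Of those 10 genes 8 rose, and Ajuba and Vgll3 did not pass, beside 16 of all 22 listed members that rose. The list was written as YAP and TEAD targets, so its share of matches does not test TEAD activity here. The windows below hold a match upstream of the start site in 3 genes that rose, written as above; GGAATG is the same letters read on the other strand. Those for Crim1 and Ptpn14 were chosen after their values were seen.
Ankrd1, chr19:36120019-36120084, minus strand: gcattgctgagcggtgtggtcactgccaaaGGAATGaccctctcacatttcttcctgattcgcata
Crim1, chr17:78200139-78200204, plus strand: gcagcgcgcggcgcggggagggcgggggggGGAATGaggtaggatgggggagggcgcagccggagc
Ptpn14, chr1:189728092-189728157, plus strand: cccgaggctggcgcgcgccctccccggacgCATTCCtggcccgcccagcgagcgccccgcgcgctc
In all called genes the share with this match was 13.1% for genes higher and 11.9% for genes lower. For CCGGAAG, a core bound by ETS factors, it was 12.1% for genes higher, 25.6% for genes lower and 18.2% for all tested genes.

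Guidance and vessel signalling genes rose as well. Semaphorins, plexins, ephrins and Slit-Robo genes, which steer axons and vessels, had 22 of 41 members higher and 2 lower, and 15 higher after adjustment (21 of 24 held). Slit2 rose from 15.0 and 26.3 CPM to 239 and 385 CPM, and Efnb2, the ephrin of arterial endothelium, from 52.8 and 88.1 CPM to 197 and 354 CPM (1.97 ± 0.52, adjusted p = 0.025). VEGF and angiopoietin signalling had 14 of 26 higher and 1 lower, also 14 higher after adjustment (13 of 15 held). Flt1, a VEGF receptor that can act as a decoy, rose from 200 and 195 CPM to 605 and 729 CPM. Kdr, the main signalling receptor, rose from 576 and 715 CPM to 1156 and 1734 CPM. Gja5, a gap junction protein of arteries, was at 1.36 and 1.24 CPM in EtOH and 18.8 and 59.1 CPM in 4OHT, where the replicates differed widely.

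The markers of haemogenic endothelium were present in all 4 libraries. Of 10 markers 5 rose and 0 fell, and 5 rose and 1 fell after adjustment (5 of 5 held), with a summed level of 2511 and 2734 CPM in EtOH and 5439 and 7103 CPM in 4OHT. Cdh5, the endothelial cadherin, rose from 786 and 745 CPM to 2342 and 3026 CPM. Smooth muscle markers also moved with the matrix and YAP groups: 5 of 6 rose (4 of 5 held), with a sum of 2047 and 1431 CPM in EtOH and 6204 and 4200 CPM in 4OHT. Leukocyte markers had 4 of 10 higher as counted and 8 after length adjustment (4 of 4 held), at sums of 163 and 124 CPM in EtOH and 233.9 and 200.4 CPM in 4OHT. Mesenchymal markers had 0 of 6 called, at 212 and 204 CPM against 398 and 242 CPM. Epithelial markers had 1 of 7 higher, at sums of 532 and 374 CPM in EtOH and 366 and 174 CPM in 4OHT, and of 6 megakaryocyte markers 1, Itga2b, fell. Cardiomyocyte, pluripotent, visceral endoderm and neuronal markers summed to under 100 CPM in each library. The part of other cell types in the adhesion and matrix results was not tested.

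Cytokine and chemokine genes with NF-kB components had 22 of 41 members higher and 1 lower, and 24 higher after length adjustment (17 of 23 held). Cxcl12, the chemokine that guides blood stem cells, rose from 16.9 and 13.3 CPM to 211 and 158 CPM (3.61 ± 0.33, adjusted p = 0.0041). Tnfaip3, a brake on NF-kB, rose from 14.1 and 12.9 CPM to 68.4 and 62.3 CPM, and Nfkb1 from 62.8 and 63.6 CPM to 105 and 134.1 CPM. The lysosome list had 13 of 35 higher and 0 lower (10 of 13 held). B2m, the light chain of MHC class I, rose from 343 and 276 CPM to 766 and 759 CPM, while the heavy chain H2-K1 was at 63.9 and 51.3 CPM against 50.9 and 36.7 CPM and did not pass.

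Receptor and signalling groups were less uniform. In the length-adjusted fit the shares of the Wnt list were near those over all genes. The Wnt list had 15 of 41 members higher and 4 lower, and 9 higher and 6 lower after adjustment (19 of 19 held). Sfrp1, a secreted Wnt inhibitor, rose from 1.62 and 1.15 CPM to 23.1 and 10.7 CPM, and Fzd10, a Wnt receptor, fell from 122 and 129 CPM to 35.9 and 28.2 CPM (-1.97 ± 0.19, adjusted p = 0.0041). Axin2, a commonly used Wnt readout, was at 5.32 and 5.06 CPM against 3.8 and 4.71 CPM and did not pass. Among MAPK feedback genes 5 of 24 rose and 3 fell (6 of 8 held), shares near the 18.9% and 17.2% over all genes. Fos, an immediate early transcription factor, rose from 13.7 and 12.2 CPM to 72.6 and 73.2 CPM (2.49 ± 0.30, adjusted p = 0.0069), and Dusp2, a phosphatase that turns off MAP kinases, fell from 92.8 and 76.7 CPM to 31.7 and 30.8 CPM. Rgs16, which turns off G protein signals, rose from 6.68 and 3.15 CPM to 72.9 and 88.8 CPM.

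The SOX, FOX, ETS, KLF and GATA families had 26 of 72 members higher and 9 lower (30 of 35 held). After adjustment 17 were higher and 12 lower. Those adjusted shares were near the ones over all genes, 2490 higher and 2207 lower of 14179 in the length-adjusted fit. Gata3, a zinc finger factor, rose from 12.8 and 8.98 CPM to 47.7 and 38.1 CPM (1.97 ± 0.23, adjusted p = 0.0064), and Foxh1, a partner of SMAD proteins in Nodal signalling, fell from 73.0 and 55.9 CPM to 22.6 and 16.4 CPM. Ets1, an endothelial factor, was at 513 and 573 CPM against 642 and 898 CPM and did not pass. T-box, homeobox and bHLH factors had 13 of 44 higher and 0 lower, and 12 and 1 after adjustment (12 of 13 held), with Tbx3 rising from 27.0 and 24.5 CPM to 78.4 and 98.4 CPM. Receptor tyrosine kinases had 8 of 22 higher and 1 lower (9 of 9 held). Igf1r, the receptor for insulin-like growth factors, rose from 30.5 and 39.7 CPM to 120 and 118 CPM, and Erbb2, a receptor of the EGF family, from 8.69 and 10.8 CPM to 32.4 and 39.2 CPM. The smaller Igf1r change after adjustment, 0.50 against 1.76 as counted, was also called.

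Spliceosome genes had 16 of 43 members lower and 3 higher (16 of 19 held). Among those lower was Srsf7, a splicing regulator, which fell from 156 and 180 CPM to 87.2 and 75.7 CPM. Heat shock and chaperonin genes had 9 of 26 lower and 1 higher (9 of 10 held). The gene that rose was Bag3, a co-chaperone of selective autophagy, which rose from 93.4 and 90.2 CPM to 175 and 161 CPM (0.87 ± 0.14, adjusted p = 0.0089). Fatty acid synthesis had 4 of 21 lower, near the 17.2% over all genes, and 2 higher, and 10 lower after adjustment (5 of 6 held). Fasn, the fatty acid synthase, was at 467 and 535 CPM against 730 and 579 CPM without passing as counted (adjusted p = 0.12), and was called lower after adjustment (-0.85, adjusted p = 0.034). Genes of folding in the endoplasmic reticulum had 6 of 23 higher and 1 lower (6 of 7 held), with Hsp90b1, its resident HSP90, rising from 493 and 493 CPM to 822 and 859 CPM. In the apoptosis list 7 of 29 rose and 2 fell (7 of 9 held), beside 18.9% and 17.2% over all genes. Birc3, an inhibitor of apoptosis, rose from 18.3 and 13.8 CPM to 38.6 and 44.7 CPM.

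Fewer chromatin genes were called higher once the length trend was removed. Over all tested genes 18.9% were called higher and 17.2% lower as counted, shares that the histone deacetylase list did not exceed. In the length-adjusted fit the shares of the histone methylation and Polycomb list were below those over all genes. Remodelling genes of the SWI/SNF and CHD families had 18 of 29 members higher and 1 lower (median 1.18, median transcript length 6697 bases), and 8 higher and 2 lower after adjustment (median 0.34; 18 of 19 held). Histone methylation and Polycomb genes had 17 of 40 higher and 0 lower, and 6 higher and 3 lower after adjustment (16 of 17 held). Acetyltransferase and bromodomain genes had 17 of 25 higher and 2 lower, and 12 and 3 after adjustment (19 of 19 held). Smarca4, the ATPase of SWI/SNF, rose from 179 and 202 CPM to 433 and 476 CPM and kept a smaller call (0.50, adjusted p = 0.022). Arid1a, a targeting subunit, rose from 128 and 148 CPM to 344 and 447 CPM, a call that ended (adjusted p = 0.058). Kmt2a, a histone H3 methyltransferase, rose from 19.6 and 20.3 CPM to 118 and 166 CPM, with a log2 fold change of 2.83 as counted and 1.31 adjusted. Dnmt3a, a DNA methyltransferase, went from 79.2 and 94.4 CPM to 125 and 142 CPM and turned from higher (0.62) to lower (-0.49) after adjustment. The 17 tested histone deacetylase genes had 3 higher and 2 lower (3 of 5 held), with Hdac7 rising from 94.6 and 82.1 CPM to 162 and 212 CPM.

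Some genes with very long transcripts rose under both fits. Golgb1, a giant Golgi tether, rose from 26.1 and 24.3 CPM to 185 and 242 CPM (3.08 as counted and 1.83 adjusted), and Tpr, a nuclear pore basket protein, from 71.2 and 72.9 CPM to 405 and 512 CPM (2.67 and 1.81). Dst, a cytoskeletal linker, rose from 21.1 and 16.3 CPM to 353 and 521 CPM (4.54 and 2.83). Tpr was 1 of 3 members called higher of the 37 nuclear pore and transport genes, of which 14 were called lower, and 21 after adjustment (15 of 17 held).

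**Figure D4:**
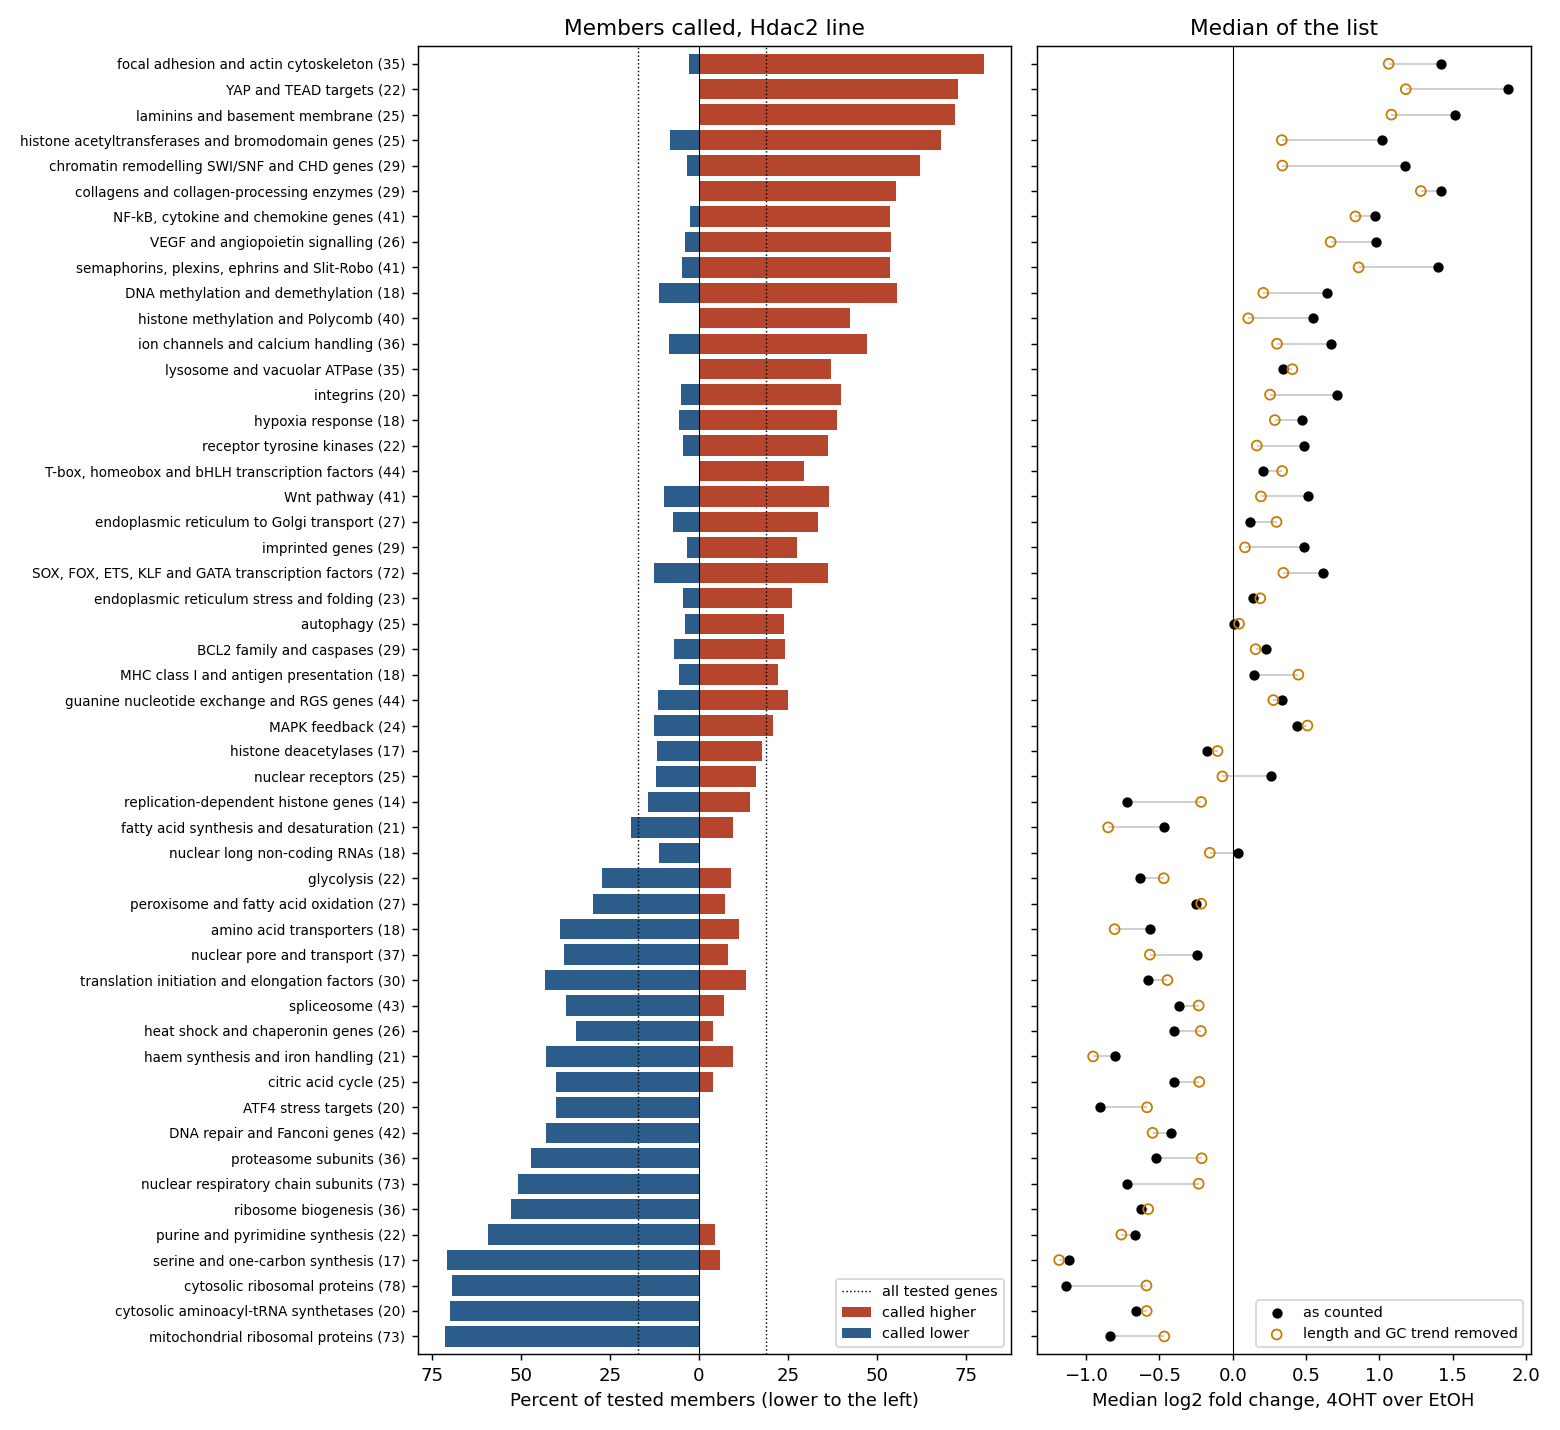
Left, the percent of tested members of each of 51 gene lists called higher or lower in the Hdac2 line, with the number tested in parentheses and dotted lines at the share of all tested genes (18.9% higher, 17.2% lower). Right, the median log2 fold change of each list as counted (filled) and in the length-adjusted fit (open): the median of the SWI/SNF and CHD list goes from 1.18 to 0.34, that of YAP and TEAD targets from 1.88 to 1.18, that of the respiratory chain from -0.72 to -0.23 and that of serine and one-carbon synthesis from -1.12 to -1.18.

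Genes that changed against the length trend were named after their values were seen. Igfbp7, Spp1 and Myl9 lie in the shortest bin of transcript length and were called higher under both fits. Igfbp7, a secreted vascular protein, was at 4.34 and 1.05 CPM in EtOH and 119 and 102 CPM in 4OHT, a log2 fold change of 5.28 as counted and 5.74 adjusted. Spp1 (osteopontin) rose from 14.1 and 2.58 CPM to 84.7 and 66.5 CPM, and Myl9, a smooth muscle myosin light chain, from 18.3 and 8.98 CPM to 85.1 and 79.2 CPM. In all 3 genes EtOH replicate 2 had the lowest level. In the longest bin 106 genes were called lower under both fits. Among them Reln, a secreted matrix protein, fell from 57.6 and 83.6 CPM to 13.9 and 9.51 CPM (-2.59 as counted and -3.83 adjusted). Bcat1, which transfers the amino group of branched-chain amino acids, fell from 94.4 and 61.4 CPM to 22 and 14.1 CPM. Ptp4a3, a phosphatase, fell from 280 and 157 CPM to 44.5 and 59.9 CPM.

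The effect of 4OHT was also compared between the Hdac2 and Hdac1 lines. In the Hdac1 line 0 genes were called by edgeR, with 947 at an unadjusted p under 0.05. Other fits of that line called 32 genes (DESeq2), 4 (edgeR with no filter on low counts) and 858 (edgeR with a replicate block in which the Hdac1-line numbers were exchanged, added after seeing the data). The difference between the lines was called for 4 genes (0.0282% of those tested), with 3973 at an unadjusted p under 0.05. Hand2, a transcription factor of heart and vessel development, was at 6.94 and 11.8 CPM in EtOH and 95.6 and 110 CPM in 4OHT in the Hdac2 line, and at 98.0 and 106 CPM in EtOH and 52.4 and 38.7 CPM in 4OHT in the Hdac1 line. Slc6a9, a glycine transporter, went from 52.2 and 42.2 CPM to 9.62 and 6.93 CPM in the Hdac2 line and was at 17.7 and 16.6 CPM against 23.9 and 24.1 CPM in the Hdac1 line. For both genes the EtOH levels of the lines already differed. The other two were Sprr2b and Car4. For the remaining genes named here a call in the Hdac2 line and none in the Hdac1 line does not show that the lines differ.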

How the data were processed

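RNA-seq was made from 8 libraries, of which 4 (Hdac2 lox/lox, 2 EtOH and 2 4OHT) are described. Per the labels' protocols, RNA was prepared with a strand-specific kit. The deposited values are raw read counts per gene. The submitters' processing notes name mm10, edgeR 3.8.5 under R 3.1.0, Bowtie2 2.2.1, bcl2fastq 2.17.1.14 and SAMtools 0.1.19; the sources used here give no counting tool or strand setting.

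Counts were filtered by expression and scaled by TMM, and 4 group means over 8 libraries were fitted with edgeR 4.0.16 (quasi-likelihood, robust), with Benjamini-Hochberg adjustment over 14179 genes at 0.05. The tests were checked on simulated counts with the same spread for every gene and no trend along transcript length. That check does not cover the differences between libraries described above. CPM values use TMM-scaled totals. limma 3.58.1, DESeq2 1.42.0, other scalings and filters, replicate blocks, offsets for transcript length and GC content (longest GENCODE M21 transcript) and leaving out each library were alternatives; giving list counts under the offsets was added after seeing the data. Lists are described by counts and medians, with no test of a list. Members and lists were chosen with earlier results of these data known. Genes named are the first 2 members and the 2 smallest adjusted p-values of each list, the 12 highest and 12 lowest fold changes at a mean of at least 20 CPM, the 8 largest rises and falls in CPM, and the 2 most abundant markers of each cell type; others are named as chosen after their values were seen.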

Additional observations from a re-analysis of the deposited data

Results flagged for a closer look

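The difference between the 4OHT effects of the Hdac2 and Hdac1 lines, tested as an interaction in edgeR's quasi-likelihood fit, was called for 4 genes. On the log2 scale it was 6.82 for Sprr2b, a cornified envelope protein, 4.63 for Hand2, -2.996 for Slc6a9 and -2.82 for Car4, a membrane carbonic anhydrase. Sprr2b was at 0.0648 and 0.0955 CPM in the Hdac2-line EtOH libraries and 11.6 and 10.3 CPM in its 4OHT libraries, against 4.08 to 6.21 CPM in the Hdac1 line. Each of those EtOH values is 1 read, so the size of the fitted difference for Sprr2b is uncertain. Car4 went from 32.7 and 32.5 CPM to 7.14 and 5.15 CPM in the Hdac2 line and was at 37.0 to 56.1 CPM in the Hdac1 line. Without any one Hdac2-line library none of the 4 differences was called, in a fit where the lone library is assumed to vary like the other groups.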

How the results depend on the processing

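The labels do not say that replicate numbers pair the libraries. Deviations of same-numbered libraries correlated at 0.39 in the Hdac2 line and -0.83 in the Hdac1 line (9951 genes). With the replicate block 0 genes were called in the Hdac2 line (0 higher, 0 lower; 5235 at an unadjusted p under 0.05) and 0 for the difference between lines. With the block and length and GC offsets together 401 were called (274 higher, 127 lower), and 0 for the difference. Crossing the Hdac1-line numbers, added after seeing the data, gave 8574 calls (4411 higher, 4163 lower), 5852 for the difference and 858 in the Hdac1 line, and a block in the Hdac2 line alone, also added, gave 8379 (4280 and 4099). The cause was not tested.

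Leaving out each Hdac2-line library in turn gave 0 to 826 calls (0 to 670 higher, 0 to 156 lower) and 0 for the difference. The genes called for the difference numbered 11 with library size alone, 1187 with no filter on low counts, 1781 with DESeq2, 1 with limma-voom and 282 with length and GC offsets. The other settings kept each count within 1.5 times. Upper quartile scaling turned the median of the transport list from the endoplasmic reticulum to the Golgi to -0.0185 and library size alone to -0.0053. The nuclear receptor median turned to -0.0702 with length and GC offsets, -0.0623 with the block and offsets and -0.0985 in the line without 4OHT replicate 2, and ranged from -0.0470 to 0.4591 over the fits of all groups leaving out 1 Hdac2-line library. The replication-dependent histone median turned to 2.09 at a mean count of at least 50, 0.98 in the line alone, 0.99 with its block and 0.48 in the line without EtOH replicate 2. These settings test other members of that list. With length and GC offsets the log2 fold change of Atg2a turned to -0.0405 (-0.0418 with the block), Fasn to -0.85, Dnmt3a to -0.49 (-0.49 with the block) and Cubn to -0.0289. Libraries of 10215792 to 15387579 reads limit what is seen of genes under about 1 CPM.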
